A study of Mus musculus with 3 samples.

Results

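The 10 genes described here, Gpx1, Gpx3, Gpx4, Prdx1, Prdx5, Txn1, Txnrd1, Slc7a11, Gclm and Srxn1, are antioxidant genes of the glutathione, peroxiredoxin and thioredoxin systems, and they are 10 of the 23860 genes listed in either of 2 single-cell libraries of mouse liver. They were chosen by name to ask whether the difference of Gpx4 between the libraries was shared by the other 9, and the ratio of Gpx4 was known when they were chosen, so that its ratios are given as a description. One library was titled MCD, which in the study's text stands for a methionine-choline deficient diet. That text described single-cell data of chow-fed and HFHC-fed mice only. The diet of this library remains unclear, although its number of kept cells was close to that text's count for chow-fed mice. The header of this library's table gave another library name (APAP0h), and neither its header nor its labels gave a strain, age or feeding time. The genotype was given as WT only in the name of the table, while the study's text described wild-type C57BL/6J mice on normal chow as the controls of its HFHC experiment. The other library, called the HFHC pool below, held cells of wild-type mice (with the diet spelled HCFC in the title) and of Chil1-/- mice fed a high-fat, high-cholesterol (HFHC) diet in 1 capture, and its cells were not assigned to a genotype here. The number of animals behind each library was not given in the sources used here. The protocol in the labels named parenchymal cells, and the study's methods named non-parenchymal cells.

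Each condition had 1 library, so that no test between conditions was possible, and diet, genotype, capture and library cannot be told apart. Intervals are 95% intervals that cover counting error only. Levels are given as the unique molecular identifiers (UMIs, each a tag of 1 captured RNA molecule) of a gene relative to all UMIs of a cell class, on the CPM scale, and ratios as log2 of the HFHC pool over the library titled MCD with 1 UMI added to each sum. A gene was compared in a class where both libraries together had at least 100 UMIs of it, and "past the fold" means a log2 ratio of at least 1 or at most -1.

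Cells defend themselves against peroxides by passing electrons from NADPH to glutathione and to thioredoxin. Glutathione peroxidases use glutathione to reduce peroxides, and Gpx4 is the member that reduces lipid peroxides within membranes and so holds back ferroptosis, an iron-dependent cell death. Peroxiredoxins use thioredoxin for the same task, and the transcription factor NRF2 (Nfe2l2), which the adaptor Keap1 keeps low in unstressed cells, induces many genes of both branches by binding antioxidant response elements together with small MAF proteins. In the liver, hepatocytes are the main makers of glutathione.

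On GRCm38 (GENCODE vM21 coordinates) Gpx4 lies at chr10:80047166-80056439, Gpx1 at chr9:108338903-108340343 and Gpx3 at chr11:54902453-54910377, all on the plus strand. Prdx1 lies at chr4:116685544-116700822 (plus) and Prdx5 at chr19:6906697-6910106 (minus). Txn1 lies at chr4:57943373-57956411 (minus), Txnrd1 at chr10:82833951-82897712 (plus) and Srxn1 at chr2:152105516-152111376 (plus). Slc7a11 lies at chr3:49892526-50443614 (minus) and Gclm at chr3:122245557-122270732 (plus). All 10 are protein-coding genes.

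The core letters of the antioxidant response element, TGACNNNGC, were looked for on both strands of RefSeq promoter windows of GRCm38.p6, which run from 250 bases before to 50 bases after each start. The 10 genes had 15 such windows, of which 4 (26.7%) held a match, as did 12.4% of all 32851 windows. The 3 matches upstream of a start site are shown because Prdx1, Gclm and Txnrd1 are the genes other than Gpx1 and Gpx4 that passed the fold upward in a class. They were picked after the ratios were seen, so that they are not evidence on the ratios. The matched letters are in capitals, all 3 on the strand opposite to the gene, and each run is printed 5′ to 3′ on the gene's own strand.
Prdx1, chr4:116685451-116685489, plus strand: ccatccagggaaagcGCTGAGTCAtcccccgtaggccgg
Gclm, chr3:122245408-122245446, plus strand: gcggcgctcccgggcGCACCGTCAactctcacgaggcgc
Txnrd1, chr10:82859099-82859137, plus strand: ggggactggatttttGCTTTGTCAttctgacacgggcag
The match began 133 bases before the start site in Prdx1, 134 before it in Gclm and 92 before it in Txnrd1. In the window of Srxn1 the match lay 28 bases after the start. None of the 4 windows of Gpx4 held these letters, and neither did those of Gpx1, Gpx3, Prdx5, Txn1 and Slc7a11. A match is a run of letters and not a measured binding site.

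The library titled MCD had 30734 barcodes with 53720863 UMIs, and 23346 cells passed the filters. The HFHC pool had 21601 barcodes with 71981673 UMIs, and 19625 cells passed. The study's text gave a count of cells from chow-fed livers close to these 23346. Its counts for the HFHC groups together were below these 19625. The median cell had 1322.5 and 1622 UMIs, and the median mitochondrial share was 5.95% and 1.11%. The libraries shared 756 cell barcodes (2.46% of the barcodes of the library titled MCD and 3.5% of those of the pool), and leaving these cells out moved no ratio of the 10 genes beyond its interval. Clusters named from marker genes gave 13 classes with at least 50 cells in each library, called by the type whose markers they carried. These were Kupffer-like cells (the resident macrophages of the liver), monocyte-derived macrophage (MoMF)-like cells, monocyte-like cells, neutrophil-like cells, type 1 and type 2 conventional dendritic-like cells (cDC1 and cDC2), plasmacytoid dendritic-like cells (pDC), B-like, plasma-like, T-like and NK/ILC1-like cells, endothelial-like cells and hepatocyte-like cells. In 7 of the 13 classes at least 9 of the class's own markers were highest in that class, with the fewest in cDC2-like cells (4 of 9) and MoMF-like cells (5 of 10). The classes do not hold all kept cells, because cells of unnamed or mixed clusters and of smaller classes were left out. The largest unnamed cluster had 275 cells in the library titled MCD and 3517 in the pool. Its leading genes were Gstm3, Thrsp and Fabp2. The 21 genes known to respond to tissue dissociation summed to 1.07 times (hepatocyte-like) to 2.35 times (endothelial-like) the CPM in the HFHC pool, and their part in the results was not tested.

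Gpx4 was higher in the HFHC pool in every class where it could be compared, by log2 ratios from 2.15 in NK/ILC1-like cells to 3.55 in cDC2-like cells, with a median of 2.52 over the 12 classes. The minimum was set on the sum of both libraries, so that a class could reach it through the pool alone. Monocyte-like, cDC1-like, cDC2-like, pDC-like, B-like, plasma-like and NK/ILC1-like cells did so, with 7 to 40 UMIs in the library titled MCD. In such classes a comparison rested on the library with the higher level, so that the count of classes is a description only. None of the other 9 genes was seen to share the pattern of Gpx4. Each of Gpx1, Prdx1, Txnrd1 and Gclm passed the fold upward in 1 class only, Prdx5 passed it downward in 1 class, and Gpx3, Txn1, Slc7a11 and Srxn1 passed it in none. Gpx3 and Slc7a11 could be compared in 1 class each and Srxn1 in 3, too few to show a pattern over the classes.

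In Kupffer-like cells Gpx4 was counted 270 times in the library titled MCD and 395 times in the pool, which gave 20.9 CPM (18.4 to 23.5) and 114 CPM (103 to 125). In T-like cells it was counted 104 and 1300 times, or 18.3 CPM (15 to 22.2) and 139 CPM (131 to 146). In hepatocyte-like cells the counts were 274 and 5441, or 53.3 CPM (47.2 to 60.0) and 363 CPM (354 to 373). The intervals of the 2 libraries did not overlap in these classes or in any of the others. The lowest level in the pool, 69.2 CPM (56.9 to 83.3) in cDC1-like cells, was above the highest level in the library titled MCD, 61.0 CPM (54.9 to 67.5), which was that of endothelial-like cells, although these 2 intervals overlapped. MoMF-like cells had only 4 and 64 UMIs of Gpx4, under the minimum, at 13.4 CPM (3.66 to 34.4) and 74.1 CPM (57.1 to 94.7).

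**Figure D1:**
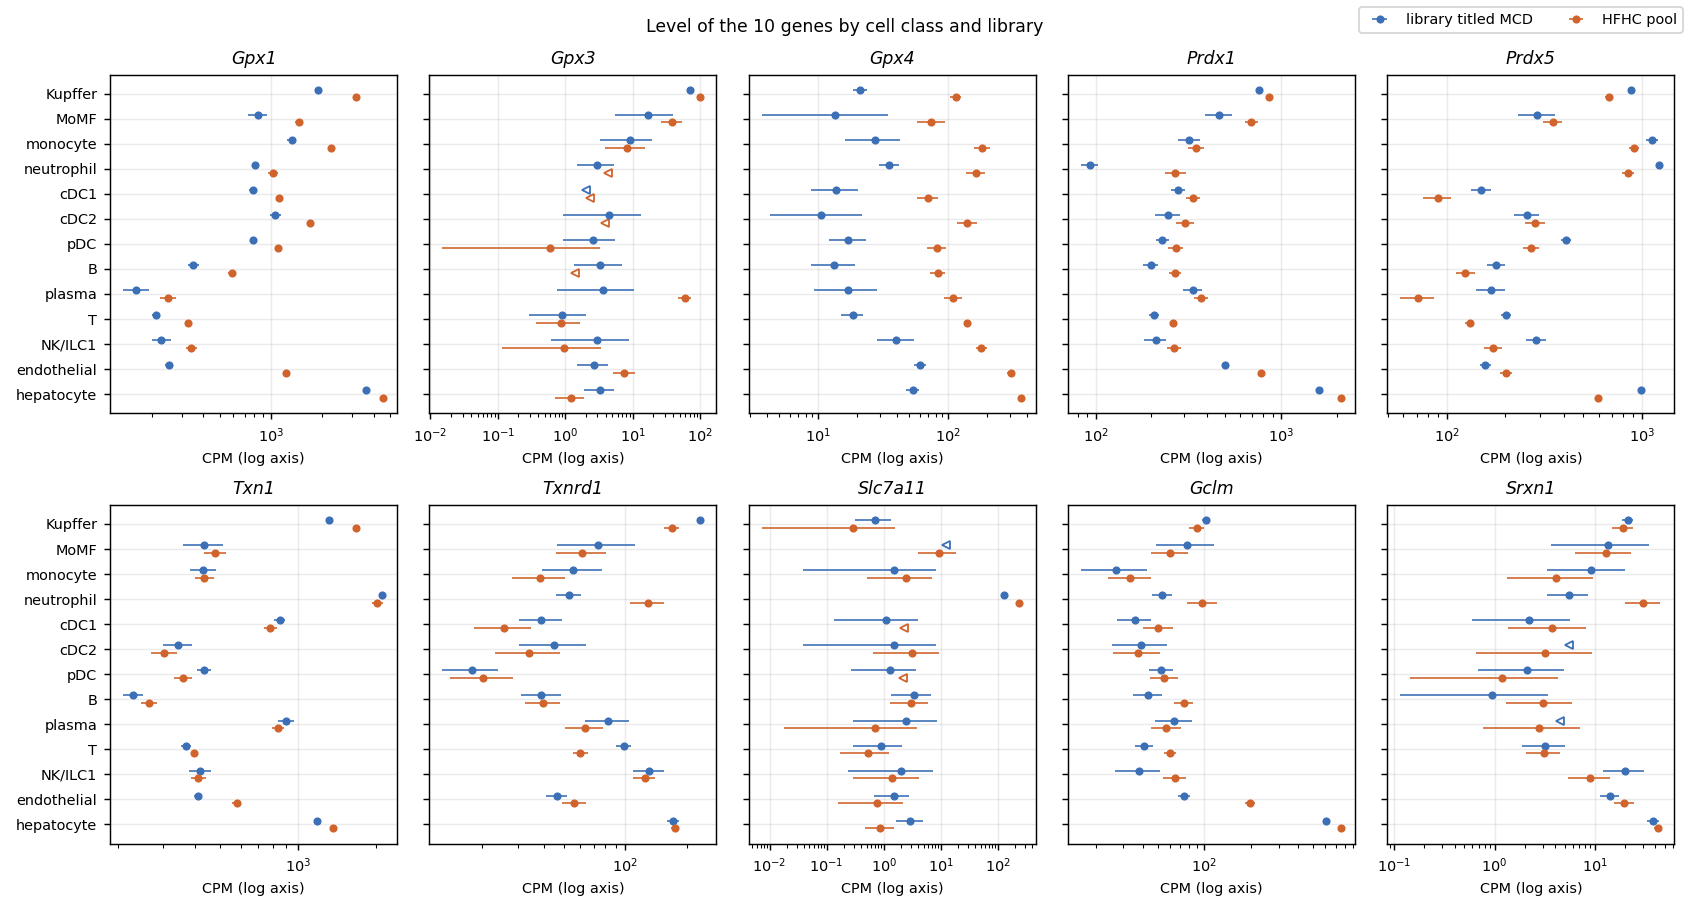
Level of each gene in CPM (horizontal log axis) in the 13 cell classes (rows), in the library titled MCD (blue) and the HFHC pool (orange), with exact Poisson 95% intervals as bars. Open triangles mark the upper limit where no UMI was counted. The 2 colours stand apart in every row of the Gpx4 panel, and in no other panel is the gap as wide in every row.

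The log2 ratio of Gpx4 was 2.44 (2.22 to 2.67) in Kupffer-like cells, 2.91 (2.63 to 3.22) in T-like cells and 2.77 (2.59 to 2.95) in hepatocyte-like cells. It was 2.30 (2.14 to 2.48) in endothelial-like cells, 2.23 (1.87 to 2.59) in neutrophil-like cells and 2.59 (2.06 to 3.26) in B-like cells. The widest interval was that of cDC2-like cells, 2.65 to 5.08, which rested on 7 and 132 UMIs. Among all genes compared in a class, Gpx4 ranked above 97.2% of genes in endothelial-like cells, its lowest place, and above 99.9% in cDC2-like cells, its highest. The difference was also present at the level of single clusters, where Gpx4 passed the fold upward in 19 of the 19 clusters that had enough UMIs, by 1.88 to 4.49. Clusters too could reach the minimum through the pool alone, as with 6 and 483 UMIs in the cluster of the highest ratio.

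The share of cells with a Gpx4 UMI differed in the same way once each cell was thinned to 1000 UMIs. Cells with fewer UMIs were left out of these shares. In T-like cells it was 1.51% (1.07 to 2.07) and 12.2% (11.0 to 13.5), and without thinning 3.42% and 35.6%. In endothelial-like cells it was 6.92% (5.88 to 8.08) and 26.5% (23.1 to 30.1). In Kupffer-like cells it was 2.16% (1.61 to 2.84) and 8.64% (5.94 to 12). The lowest shares were those of cDC1-like cells, 0.376% (0.00952 to 2.08) and 5.16% (2.25 to 9.92), in a class with median depths of 6301 and 10657 UMIs. No class is known to lack Gpx4, and a share of cells in which it came from free RNA could not be set apart.

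In the library titled MCD endothelial-like and hepatocyte-like cells were highest (61.0 and 53.3 CPM) and cDC2-like cells lowest (10.5 CPM), and all 12 pairs of neighbours in that order had overlapping intervals. In the pool hepatocyte-like and endothelial-like cells were highest (363 and 302 CPM) and cDC1-like cells lowest (69.2 CPM), and 9 of 12 neighbouring pairs overlapped.

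Gpx4 was not the only gene with such a difference. Of 1855 genes that could be compared in the same 12 classes, 18 (0.970%) passed the fold upward in all of them and 1 passed it downward in all. Of the 1855 genes, 2 had a higher lowest ratio than Gpx4 and 4 had a higher median ratio. Among the 18 were Gpx4 itself, the ferritin light chain Ftl1, the ribosomal proteins Rps19, Rpsa and Rpl14, the translation factors Eef2 and Eif5a, the immediate early genes Fosb, Jun and Ier2, and Gnb2, Tspo, Gm42418, Nrbp1, Ppp1ca, Ptms and Prelid1, all named after their values were seen. Among 1388 genes with enough UMIs in every class, the 5 outside the gene lists used here whose ratios over the 13 classes lay nearest to those of Gpx4 by Euclidean distance were Gm42418 (1.73), Rps19 (1.98), Rpsa (2.23), Ppp1ca (2.39) and Ptms (2.95), where a distance of 0 would be an identical pattern and the MoMF-like value of Gpx4 rests on fewer UMIs than the minimum. The longest annotated transcript of Gpx4 had 60.2% G and C, above 97.5% of the genes compared in T-like cells. The longest transcript was used for every gene, and it need not be the form that was counted. By that share Gm42418 lay above 97.5% of them, Rps19 above 53.2%, Rpsa above 58.7%, Ppp1ca above 85.8% and Ptms above 99.8%. Whether that share had a part in the ratios was not tested. Over all genes the rank correlation of the ratio with it ran from -0.19 in endothelial-like to -0.03 in MoMF-like cells. With the share of G and C in the last 500 bases it ran from -0.11 in B-like to 0.03 in MoMF-like cells. These correlations are across genes, which share libraries and are not independent replicates.

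**Figure D2:**
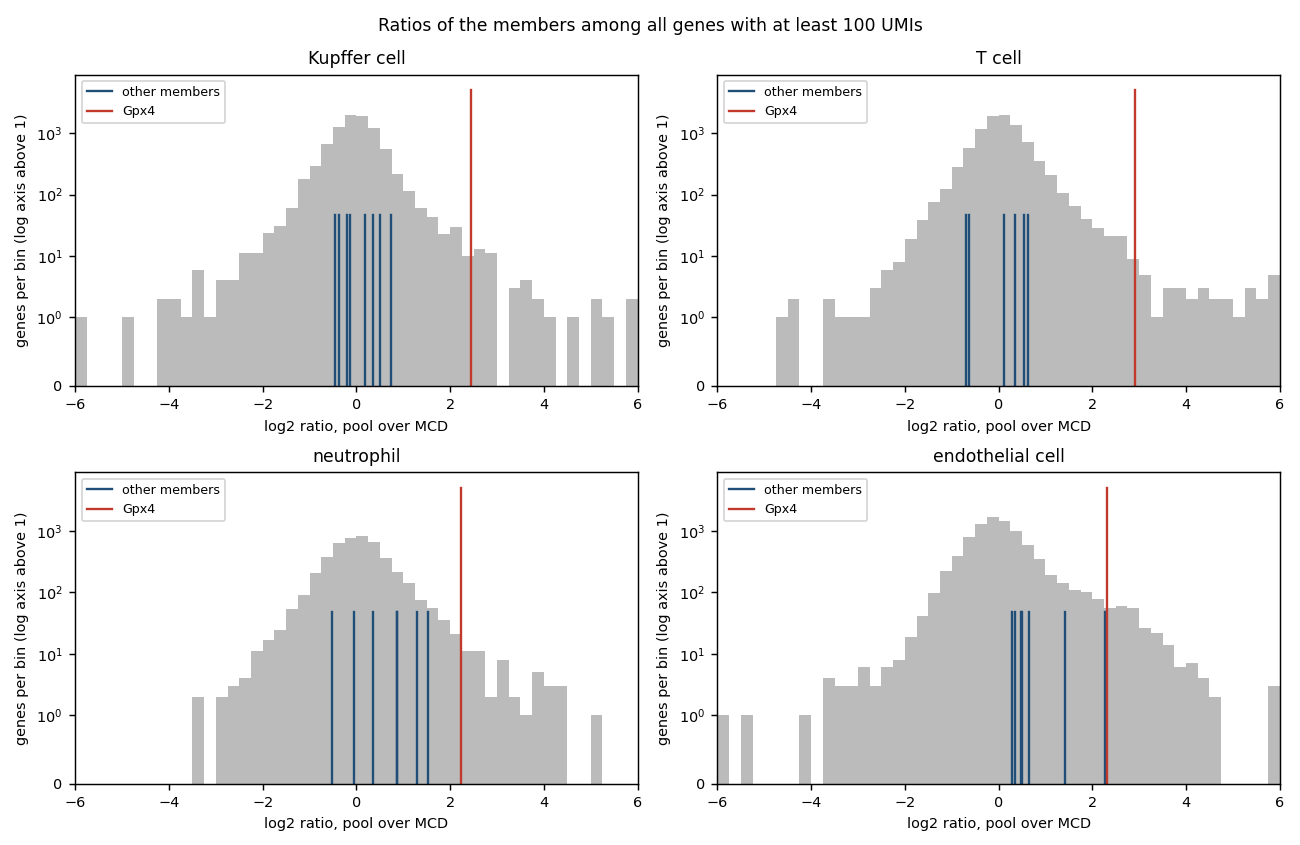
Number of genes (vertical axis, linear up to 1 and log above) by log2 ratio, HFHC pool over library titled MCD, in Kupffer-like, T-like, neutrophil-like and endothelial-like cells, in bins of 0.25, with values beyond 6 in either direction placed in the end bins. Red lines mark Gpx4 and blue lines the other genes described here, and the red line lies in the right tail in all 4 classes (2.44, 2.91, 2.23 and 2.30).

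The share of all genes past the fold gives the background for these counts. It was 3.66% higher and 3.84% lower in the pool in Kupffer-like cells, 5.99% and 4.54% in MoMF-like cells, 4.36% and 2.78% in monocyte-like cells, and 8.14% and 4.45% in neutrophil-like cells. In the dendritic classes it was 3.44% and 2.39% (cDC1-like), 3.86% and 2.63% (cDC2-like), and 2.93% and 2.08% (pDC-like). In the lymphoid classes it was 3.85% and 2.44% (B-like), 7.08% and 9.09% (plasma-like), 5.85% and 3.08% (T-like), and 3.71% and 2.49% (NK/ILC1-like). In endothelial-like cells it was 9.79% and 4.64%, and in hepatocyte-like cells 5.68% and 7.86%. The 9 genes other than Gpx4 gave 76 gene and class pairs with enough UMIs, of which 4 (5.26%) were higher and 1 (1.32%) lower past the fold, beside 5.42% and 4.12% of the 73452 pairs over all genes. Their share higher was near the background, their share lower was below it, and their median ratio was 0.25 beside 0.01 over all pairs. The 4 higher pairs lay in 2 classes, with 2 of 7 genes in neutrophil-like cells and 2 of 7 in endothelial-like cells. By class, their median ratio ran from -0.14 in plasma-like cells, where the median of all genes was -0.28, to 0.87 in neutrophil-like cells, where it was 0.04.

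**Figure D3:**
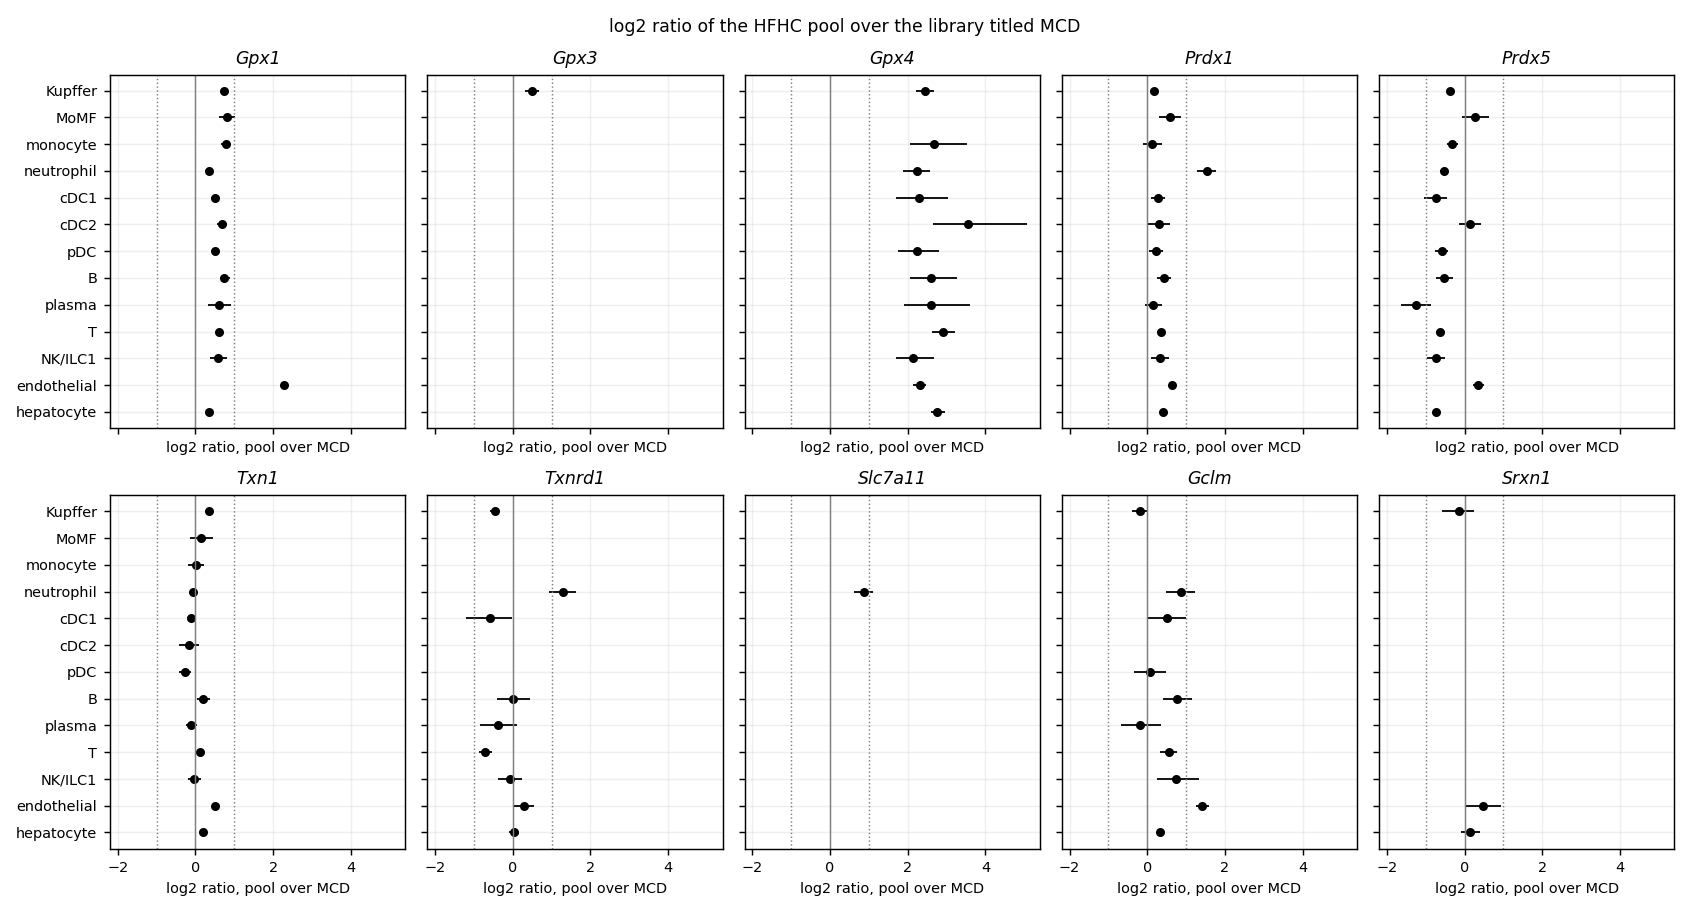
Log2 ratio, HFHC pool over library titled MCD (horizontal axis), for each gene in the cell classes (rows) where it had at least 100 UMIs, with 95% counting intervals as bars and dotted lines at -1 and 1. Gpx4 lies beyond 1 in 12 of 12 classes, and the other genes lie mostly between the dotted lines.

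Gpx1, the cytosolic glutathione peroxidase that reduces hydrogen peroxide, was higher in the pool in all 13 classes with intervals above 0, but by far less than Gpx4 outside endothelial-like cells. Its median ratio was 0.62 and its lowest 0.34 (0.32 to 0.37), in hepatocyte-like cells, where its level was highest in both libraries at 3591 CPM (3539 to 3643) and 4560 CPM (4525 to 4594). In Kupffer-like cells, the next highest, it was 1889 CPM (1866 to 1913) and 3143 CPM (3084 to 3202). These levels did not overlap between the libraries. Plasma-like cells had the lowest level, 162 CPM (136 to 192) and 249 CPM (224 to 276). In endothelial-like cells Gpx1 was counted 1532 and 4858 times, or 253 CPM (241 to 266) and 1225 CPM (1191 to 1260), a log2 ratio of 2.27 (2.19 to 2.36). It was the class in which Gpx1 passed the fold, and the one in which its ratio was close to that of Gpx4, 2.30.

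Gpx3, the secreted glutathione peroxidase of plasma, was mainly counted in Kupffer-like cells, with 924 and 351 UMIs, or 71.4 CPM (66.8 to 76.1) and 101 CPM (90.6 to 112). Its log2 ratio there was 0.50 (0.32 to 0.68), and this was the single class with enough UMIs. Plasma-like cells had 3 and 85 UMIs of Gpx3, or 3.63 CPM (0.748 to 10.6) and 59.1 CPM (47.2 to 73.1), under the minimum for a comparison. In cDC1-like cells no UMI of Gpx3 was counted in either library, which allows levels of up to 2.02 and 2.30 CPM.

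Prdx1, the abundant cytosolic peroxiredoxin, was highest in hepatocyte-like cells at 1593 CPM (1559 to 1628) and 2105 CPM (2082 to 2129), with Kupffer-like cells next. Its ratio was small in most classes, with a median of 0.33 and a lowest value of 0.13 (-0.11 to 0.37) in monocyte-like cells. Its interval lay above 0 in 11 of 13 classes and held 0 in 2. Neutrophil-like cells were the exception. They had the lowest Prdx1 level of all classes in the library titled MCD, 93.0 CPM (83.4 to 103) from 341 UMIs. In the pool it was 269 CPM (235 to 306) from 230 UMIs, a log2 ratio of 1.53 (1.28 to 1.78). With each cell thinned as for Gpx4, the share of neutrophil-like cells with a Prdx1 UMI was 8.17% (6.91 to 9.58) and 12.6% (9.34 to 16.6). These 2 intervals overlapped. The thinning left out 1534 of 3235 neutrophil-like cells in the library titled MCD and 3 of 351 in the pool. At 2000 UMIs the share was 23.8% (17.5 to 31.0) and 23.5% (18.0 to 29.7).

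Prdx5, a peroxiredoxin of mitochondria, peroxisomes and cytosol, went the other way. Its interval lay below 0 in 10 of 13 classes, above 0 in 1 and held 0 in 2, with a median ratio of -0.53. It was highest in neutrophil-like cells at 1223 CPM (1187 to 1259) in the library titled MCD and 848 CPM (788 to 912) in the pool. In monocyte-like cells it was 1126 CPM (1047 to 1210) and 909 CPM (856 to 964). The library titled MCD was the higher one in both of these classes. In plasma-like cells Prdx5 was counted 139 and 102 times, or 168 CPM (141 to 198) and 70.9 CPM (57.8 to 86.1), and its ratio of -1.24 (-1.63 to -0.87) was its single value past the fold. Endothelial-like cells had the highest ratio, 0.35 (0.21 to 0.49), which was -0.29 (-0.54 to -0.06) in those with few UMIs of hepatocyte markers. Prdx5 overlaps Trmt112 on the opposite strand in the GENCODE vM21 annotation, which limits how far reads can be assigned where strand is not counted.

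Txn1, the cytosolic thioredoxin that recharges peroxiredoxins, differed least, with a median ratio of 0.01 and no class past the fold. It was highest in neutrophil-like cells, at 2104 CPM (2057 to 2151) and 2026 CPM (1932 to 2124), levels whose intervals overlapped. Its ratio ran from -0.27 (-0.42 to -0.12) in pDC-like cells to 0.50 (0.42 to 0.58) in endothelial-like cells, where it was -0.06 (-0.19 to 0.07) in those with few UMIs of hepatocyte markers, and its interval held 0 in 6 of 13 classes.

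Txnrd1, the selenoprotein reductase that returns electrons to thioredoxin, was lower in the pool in T-like cells, at 98.2 CPM (90.2 to 107) and 60.3 CPM (55.4 to 65.4), a log2 ratio of -0.70 (-0.88 to -0.53). In Kupffer-like cells it was 232 CPM (223 to 240) and 168 CPM (155 to 183), a ratio of -0.46 (-0.59 to -0.33). In both classes the libraries did not overlap. Neutrophil-like cells had the opposite direction, with a ratio of 1.29 (0.93 to 1.63). It rested on 194 and 110 UMIs, or 52.9 CPM (45.7 to 60.9) and 129 CPM (106 to 155). With each cell thinned as for Gpx4, the share of neutrophil-like cells with a Txnrd1 UMI was 5.29% (4.28 to 6.46) and 5.75% (3.55 to 8.74). At that equal depth the share showed no clear difference. Cells of lower depth were left out, 1534 in the library titled MCD and 3 in the pool. Txnrd1 and Gpx4 are both selenoproteins. In Kupffer-like and T-like cells their ratios had opposite signs, and in neutrophil-like and endothelial-like cells both were positive. In endothelial-like cells with few UMIs of hepatocyte markers the ratio of Txnrd1 turned to -0.37 (-0.86 to 0.04). The interval of Txnrd1 lay below 0 in 3 of 9 classes, above 0 in 2 and held 0 in 4. In the T-like clusters with enough UMIs its ratio was -0.38 (-0.64 to -0.14), -0.52 (-0.93 to -0.08) and 0.35 (-0.31 to 1.26). Their cells were unevenly split between the libraries, with 1839 and 609, 602 and 1020, and 136 and 891 cells. The T-like value of Txnrd1 can therefore also carry a difference in the mix of clusters, which was not tested. Txnrd1 overlaps Eid3 on the same strand.

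Slc7a11, the cystine importer that feeds glutathione synthesis, was rarely counted in the other named classes, with at most 15 UMIs in any of them in either library. Cells left in no class also held it. Over all kept cells it was counted 573 and 359 times. A cluster named from MoMF markers, before its cells were clustered again, had 11 and 79 UMIs, under the minimum. In neutrophil-like cells it was counted 478 and 203 times, or 130 CPM (119 to 143) and 237 CPM (206 to 272), a ratio of 0.87 (0.62 to 1.1) that did not reach the fold.

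Gclm, the modifier subunit of the enzyme that makes the first intermediate of glutathione, was highest in hepatocyte-like cells at 605 CPM (584 to 627) and 755 CPM (741 to 769). Its interval lay above 0 in 7 of 10 classes, below 0 in 1 and held 0 in 2, with a median ratio of 0.52. The lowest ratio was -0.20 (-0.38 to -0.02) in Kupffer-like cells, so that Gclm was slightly lower in the pool where Gpx4 was higher. Endothelial-like cells had 447 and 780 UMIs, or 73.8 CPM (67.2 to 81.0) and 197 CPM (183 to 211), a ratio of 1.41 (1.24 to 1.58).

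Srxn1, sulfiredoxin, which repairs overoxidised peroxiredoxins, had enough UMIs in 3 classes, with ratios of -0.14 (-0.57 to 0.24) in Kupffer-like cells, 0.15 (-0.08 to 0.39) in hepatocyte-like cells and 0.47 in endothelial-like cells. In neutrophil-like cells 20 and 26 UMIs gave 5.45 CPM (3.33 to 8.42) and 30.4 CPM (19.8 to 44.5), under the minimum.

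Markers of hepatocytes moved with the endothelial-like values. The 14 hepatocyte markers summed to 2421 CPM in the library titled MCD and 10280 CPM in the pool in endothelial-like cells, and to 2468 and 4003 CPM in neutrophil-like cells. In Kupffer-like cells they were lower in the pool, 1505 and 885 CPM. When only cells with at most 0.3% of their UMIs from these markers were kept, a choice made after the values were seen, 2104 and 284 endothelial-like cells remained with 813 and 992 CPM of the markers. In these cells the ratio of Gpx1 was 0.80 (0.64 to 0.96), that of Gclm 0.20 (-0.15 to 0.52) and that of Prdx1 0.02 (-0.10 to 0.14), while that of Gpx4 was 2.20 (1.98 to 2.41). Neither Gpx1 nor Gclm reached the fold there, and the ratio of Prdx5 turned to -0.29 (-0.54 to -0.06). In neutrophil-like cells kept in the same way, 2777 and 289 cells, the ratio was 1.66 (1.27 to 2.03) for Prdx1, 1.19 (0.77 to 1.58) for Txnrd1, 1.02 (0.75 to 1.27) for Slc7a11 and 1.13 (0.59 to 1.62) for Gclm. These 4 genes were past the fold, while Gpx1 (0.14), Prdx5 (-0.52) and Txn1 (-0.02) were not. The share of all genes higher, 8.14%, is that of all neutrophil-like cells and not of those kept here. The median depth of neutrophil-like cells was 1021 UMIs in the library titled MCD and 2143 in the pool. With all neutrophil-like cells thinned as for Gpx4, the share of cells with a UMI was higher in the pool for all 4 genes. For each of them the intervals of the 2 libraries overlapped. It was 12.1% (10.6 to 13.8) and 15.8% (12.1 to 20.1) for Slc7a11, and 5.53% (4.49 to 6.72) and 6.90% (4.47 to 10.1) for Gclm. With cells thinned to 2000 UMIs, which left 164 and 217 cells, the 4 genes did not share that direction. There the share for Gclm was lower in the pool, 15.2% (10.1 to 21.7) and 8.76% (5.35 to 13.3). For Prdx1 it was 23.8% and 23.5%. It stayed higher in the pool for Txnrd1 (10.4% and 15.7%) and Slc7a11 (14.0% and 24.9%). The intervals again overlapped for all 4 genes. In T-like cells Gpx4 had a ratio of 2.89 (2.59 to 3.24) and Prdx5 of -0.69 (-0.82 to -0.56), close to their values over all cells. In the T-like clusters with enough UMIs, over all their cells, the ratio of Prdx5 was -0.44, -0.51 and -0.16. Over the 12 classes other than hepatocyte-like cells the 9 other genes gave 67 pairs in the cells with at most 0.3% of UMIs from hepatocyte markers. Of these, 4 (5.97%) were higher and 1 (1.49%) lower past the fold, beside 4.19% and 3.30% of the pairs of all genes. The 4 higher pairs were those of neutrophil-like cells. The median of the 67 pairs was 0.07, beside 69 pairs with a median of 0.26 over all cells of the same classes.

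**Figure D4:**
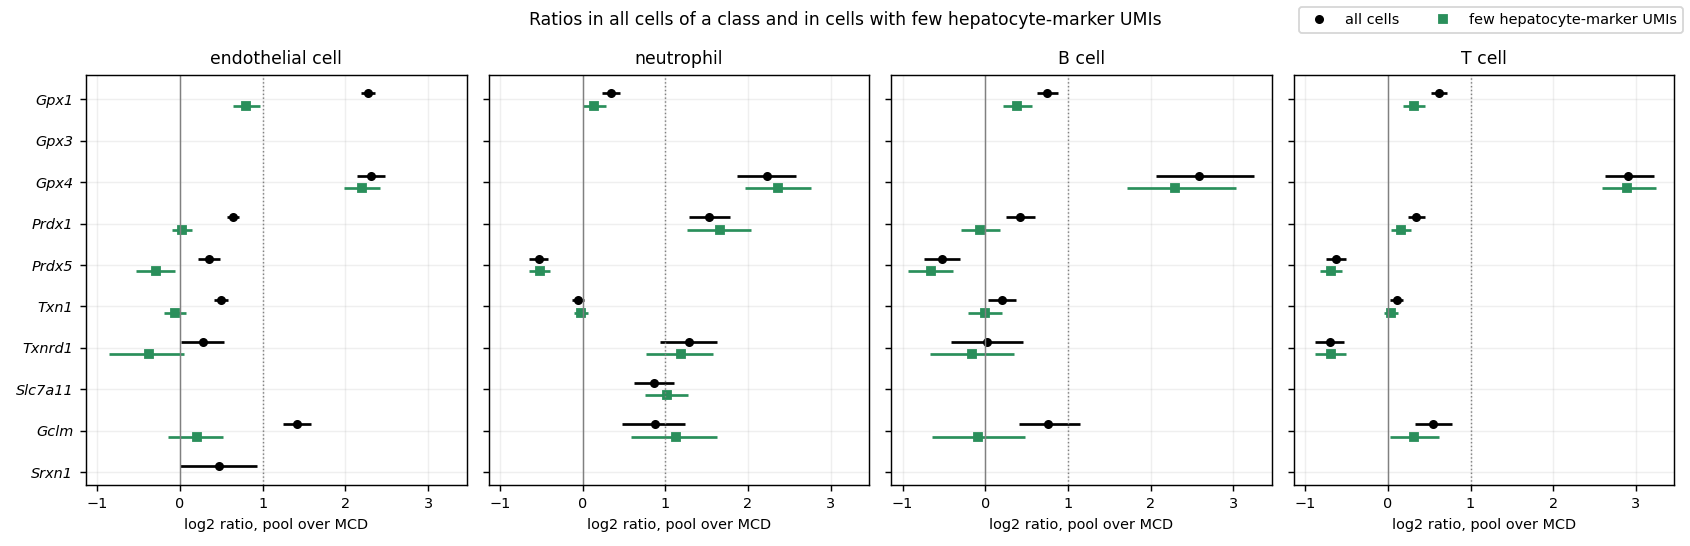
Log2 ratio, HFHC pool over library titled MCD (horizontal axis), for each gene (rows) in endothelial-like, neutrophil-like, B-like and T-like cells, over all cells (black circles) and over cells with at most 0.3% of UMIs from hepatocyte markers (green squares), with 95% counting intervals. In endothelial-like cells the green value of Gpx1 is 0.80 beside a black value of 2.27, while Gpx4 is 2.20 beside 2.30.

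Other genes of these pathways, taken from lists without the 10 genes, are given as pairs of a gene and a class with enough UMIs, beside the 5.42% higher and 4.12% lower over all genes. Of 38 pairs of other peroxiredoxins 3 were higher and 0 lower past the fold, and of 88 pairs of the thioredoxin and glutaredoxin system 2 were higher and 6 lower. Of 132 pairs of other selenoproteins 5 were higher and 2 lower, and of 55 pairs of the genes that insert selenocysteine 3 were higher. The share of the thioredoxin and glutaredoxin system that was lower, 6.82%, and the share of other peroxiredoxins that was higher, 7.89%, were above those of all genes, and the share of other selenoproteins that was higher, 3.79%, was below. NRF2 and its partners had 2 of 71 pairs higher, other ferroptosis genes 9 of 103 higher and 5 lower, and superoxide dismutases and catalase 5 of 45 higher and 1 lower. NRF2 target genes had 27 of 151 pairs (17.9%) higher and 1 lower, of which Ftl1 gave 13 and Osgin1 gave 5, and without these genes, set aside after their values were seen, 9 of 133 (6.77%) were higher. In the cells with few hepatocyte-marker UMIs, over the 12 classes other than hepatocyte-like cells, 4.19% of the pairs of all genes were higher. There NRF2 target genes had 18 of 124 pairs (14.5%) higher, beside 24 of 135 (17.8%) in all cells of the same classes. Without Ftl1 and Osgin1 these were 3 of 109 (2.75%) and 8 of 119 (6.72%). In the same filtered cells other peroxiredoxins had 1 of 32 pairs (3.1%) higher, beside 3 of 34 (8.82%) in all cells of these classes. Superoxide dismutases and catalase had 1 of 40 (2.5%) higher, beside 5 of 41 (12.2%). The thioredoxin and glutaredoxin system had 7 of 74 (9.46%) lower, beside 6 of 79 (7.59%) in all cells. Glutathione supply and recycling had 11 of 52 higher over the 13 classes. Over the 12 classes it had 10 of 43 (23.3%) higher in all cells and 3 of 29 (10.3%) in those with few hepatocyte-marker UMIs. Glutathione transferases, many of them hepatocyte genes, had 31 of 97 (32.0%) higher. Over the 12 classes they had 29 of 76 (38.2%) higher in all cells and 4 of 44 (9.09%) in those with few hepatocyte-marker UMIs. Genes of tissue dissociation had 129 of 245 pairs (52.7%) higher.

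Of the single genes on these lists, Ftl1, the ferritin light chain that stores iron, was past the fold in 13 of 13 classes, by 1.19 to 2.24. Osgin1, a stress-induced NRF2 target, was past it in 5 of 5 classes by 1.1 to 3.89, and Oplah, which recycles 5-oxoproline to glutamate, in 3 of 3 by 1.12 to 3.16. The transferases Gstm1 (8 of 13 classes), Gstz1 (5 of 8) and Gstp1 (4 of 8) and the genes Ptgs2 (2 of 3) and Selenoo (2 of 4) were past it in at least some classes. In endothelial-like cells with few hepatocyte-marker UMIs the ratio of Gstm1 was 0.52 beside 2.76 over all cells, and that of Ftl1 was 1.27. In the same filtered cells Gstm1 was also below the fold in neutrophil-like (0.80), cDC1-like (0.04), B-like (0.88) and T-like cells (0.81). It stayed past the fold in MoMF-like (1.43) and pDC-like cells (1.74). There Gstz1 was 0.69 in T-like and 1.39 in endothelial-like cells, and Gstp1 was 0.87 and 0.86.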

How the data were processed

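The authors deposited UMI counts per cell and gene (molecules after error correction, per the file headers, made with the BD Rhapsody WTA Analysis Pipeline 1.10.1 on GRCm38 with GENCODE vM19) for 2 libraries. The tag library of the pool was not used here, and the table of the library titled MCD was matched to it by elimination. Cells with 200 to 4000 genes and at most 25% mitochondrial UMIs were kept, as in the study's methods. They were normalized with SCTransform, integrated by reciprocal PCA and clustered in Seurat, and clusters were named from marker lists, so that names may differ from those of the study. Scrublet calls were kept in and left out as an alternative. UMIs were summed per class and library (Python 3.11.15, scipy 1.17.1), with exact Poisson intervals for CPM, exact binomial intervals for shares and ratios, and 1 UMI added for log2 ratios. Genes with at least 100 UMIs were compared. The script was tested on simulated data. With 1 library per condition there was no test. Total UMIs per library set the precision.

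The genes and lists were chosen with earlier results of these data known. Named were the 10 genes, list genes past the fold in the same direction in at least 50% of at least 3 classes, and the 5 nearest to Gpx4. Alternatives covered filters, clustering, scaling, thinning, weighting, the UMIs added and the minimum of UMIs.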

Additional observations from a re-analysis of the deposited data

Results flagged for a closer look

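Gpx4 was also higher in the pool in barcodes outside the cells analysed, by a log2 ratio of 2.86 in those with under 200 genes and 2.69 in those with over 4000 genes, beside 2.89 over all kept cells. The other entries are genes whose intervals lay above 0 in one class and below 0 in another, differences that were not tested. Prdx5 had a log2 ratio of 0.35 in endothelial-like and -1.24 in plasma-like cells, and Txn1 of 0.50 in endothelial-like and -0.27 in pDC-like cells. In endothelial-like cells with few hepatocyte-marker UMIs these values turned to -0.29 for Prdx5 and -0.06 for Txn1. Txnrd1 had 1.29 in neutrophil-like and -0.70 in T-like cells. In the T-like clusters with enough UMIs its ratio ran from -0.52 to 0.35. With cells thinned as for Gpx4, the share of neutrophil-like cells with a Txnrd1 UMI was 5.29% and 5.75%, with overlapping intervals. That thinning left out 1534 neutrophil-like cells of the library titled MCD and 3 of the pool. Gclm had 1.41 in endothelial-like and -0.20 in Kupffer-like cells. In endothelial-like cells with few hepatocyte-marker UMIs the value of Gclm was 0.20 (-0.15 to 0.52), an interval that holds 0. Hepatocyte markers were higher in the pool in endothelial-like cells (2421 and 10280 CPM) and lower in Kupffer-like cells (1505 and 885 CPM).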

How the results depend on the processing

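No paired analysis was possible because each condition had 1 library, and for the same reason no replicate could be left out. The log2 ratio of Gpx4 stayed above 0 in all 161 values under the alternatives, from 1.96 to 4.24. The number of classes with Gpx4 past the fold went from 12 to 5 with cells thinned to 1000 UMIs and to 4 with a minimum of 500 UMIs, since fewer classes reached the minimum. The share of pairs of the other 9 genes lower past the fold, 1.32%, was 0% without integration, with median scaling, with thinning and with a minimum of 500 UMIs, 2.56% with classes from each cell's own markers, and 4.40% with a minimum of 20 UMIs. With that minimum of 20 UMIs the median share of all genes higher went from 4.36% to 6.61% and lower from 3.08% to 5.84%. Signs turned for Gclm in Kupffer-like cells (0.0957) and Txn1 in T-like cells (-0.0359) with each cell's own markers, for Txn1 in cDC1-like cells without integration (0.00347), for Txn1 in B-like cells with thinning (-0.0466), and for Txnrd1 in endothelial-like cells with antioxidant genes left out of clustering (-0.36). In cells with few hepatocyte-marker UMIs, chosen after seeing the data as was leaving out shared barcodes, they turned in B-like cells for Prdx1 (-0.0596), Txn1 (-0.00706) and Gclm (-0.0864) and in endothelial-like cells for Prdx5 (-0.29), Txn1 (-0.0576) and Txnrd1 (-0.37). The cause was not tested. Without integration 10 of 13 classes were found, and with own markers 12. Depth limits Gpx3, Slc7a11 and Srxn1, which had enough UMIs in 1 to 3 classes.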
